A study of Zea mays with 48 samples.

Results

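The leaf response of maize to chilling of the shoot alone was read from 6 of the 48 libraries of the series. These were the 3 leaf libraries of shoot-only chilling, from plants with a 4 °C shoot above a 26 °C root for 24 h, and the 3 leaf libraries of the control, from plants kept at 26 °C in both parts. Libraries were chosen by their tissue and treatment labels, and no measured value entered the choice. The genotype was B73, an inbred line, and the plants had reached 3 leaves; the labels name no transgene, mutation or chemical. The series also holds root, top crown and bottom crown, the crown being the junction of shoot and root, and 2 further conditions: whole-plant chilling for 24 h (4 °C for both parts) and root-only chilling for 24 h (a 26 °C shoot above a 0 °C root). Each tissue and condition had 3 libraries, which the design text calls biological repeats. Whether a library holds 1 plant or a pool is not stated. The p-values therefore set each difference against the spread between the libraries of a fit, part of which may be technical.

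Maize descends from tropical ancestors, and temperatures well above freezing already slow its photosynthesis and growth. In plants, cold acts in part through the CBF/DREB transcription factors, which bind the promoters of cold-responsive genes such as those of dehydrins and of enzymes that make protective sugars. Leaf cells also read 2 small genomes outside the nucleus, in plastids and mitochondria, which encode parts of the photosynthetic and respiratory complexes and of the organelles' own ribosomes. The name table used here paired 0 of the 44146 nuclear gene identifiers with a symbol, so members of the cold pathway could not be named. Nuclear genes are therefore described by identifier, by the size of their change and by their values in other libraries, and named genes are those of the organelles.

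Counts per library totalled 5200449, 4980287 and 4907921 in shoot-only chilled leaf and 4890138, 3449880 and 4645848 in control leaf. Control replicate 2 was the lowest of all 48 libraries, whose totals ran from 3449880 to 8633854. Counts were found for 20592, 20638 and 20509 genes in the chilled libraries and for 20194, 19771 and 19664 in the control libraries. The leaf label was checked with 699 leaf-enriched genes and with the 100 of 358 root-enriched genes that passed the leaf filter on low counts, all at least 8 times higher in their organ in the libraries of whole-plant and root-only chilling. The leaf-enriched genes took 50% to 53.3% of counts in shoot-only chilled leaf and 53.2% to 53.9% in control leaf, but no more than 0.392% in the matching root libraries. These 100 root-enriched genes took 0.117% to 0.137% in shoot-only chilled leaf and 0.135% to 0.207% in control leaf, against at least 2.09% in the root libraries. Levels are given as CPM, that is, counts relative to the total of the library after TMM scaling. Changes are log2 fold changes of shoot-only chilled over control leaf unless another pair is named. The root-mean-square log2 CPM distance between a chilled and a control library was 1.06 to 1.23, above the distances among the chilled libraries (0.542 to 0.587) and among the control libraries (0.524 to 0.606).

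After 24 h in the cold, a large part of the measured leaf genes had changed. Of 15845 genes tested, 4658 differed (29.4%): 2408 were higher in shoot-only chilled leaf (15.2%) and 2250 were lower (14.2%), at an adjusted p under 0.05 in edgeR's quasi-likelihood test with Benjamini-Hochberg adjustment. The increases were the larger changes: of the 2408 raised genes, 1657 rose at least 2-fold, 441 at least 8-fold and 132 at least 32-fold, with a median of 1.47. Of the 2250 lowered genes, 1342 fell at least 2-fold, 72 at least 8-fold and 4 at least 32-fold, with a median of -1.13. In these counts, genes without any count in one of the groups stand at the bound set by a floor of 3 counts per library, which moved the raised median to 1.46 and left the lowered median at -1.13. The 3 chilled and 3 control libraries did not overlap for 2351 of the raised and 2169 of the lowered genes, while 44% of all genes tested did not overlap. The median of all genes was -0.01. When libraries were scaled by size alone and not by TMM, that median was -0.17, and 1862 genes were higher against 2988 lower.

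**Figure D1:**
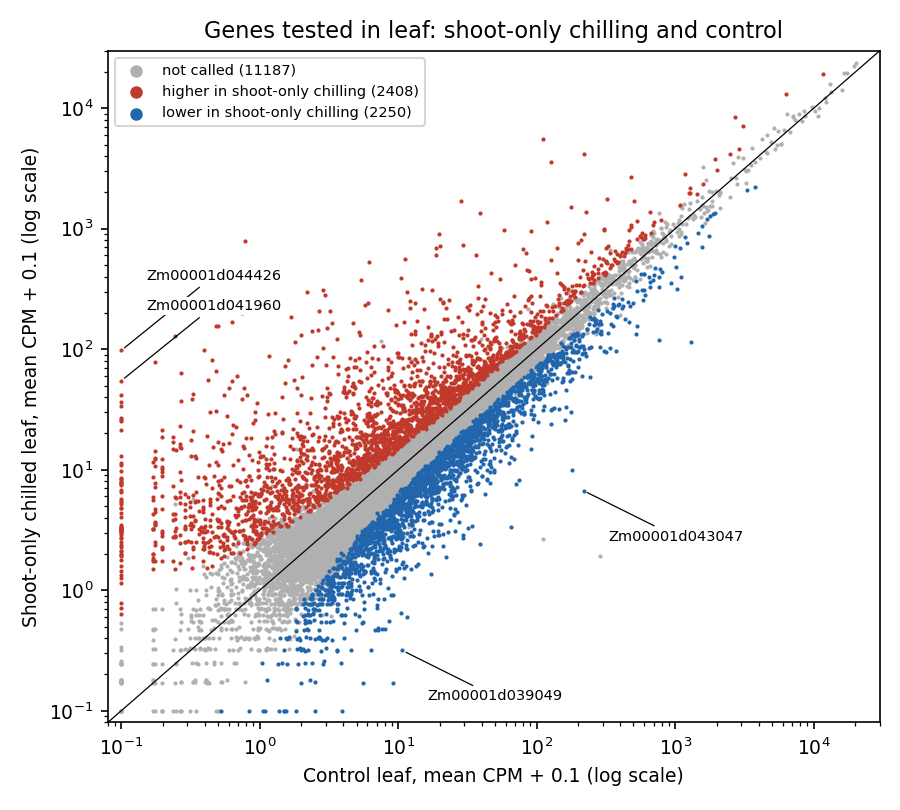
Mean level of each of the 15845 genes tested, in shoot-only chilled leaf (vertical, CPM + 0.1, log scale) and control leaf (horizontal, same scale); each point is 1 gene, coloured by its call, and the line marks equal levels. Raised genes spread farther from the line than lowered genes, and the column at the left edge holds genes without counts in control leaf.

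Calls became more frequent with the level of the gene and the called changes became smaller. With the genes split into 4 equal parts by mean CPM, 20.7% of the lowest part (0.481 to 4.09 CPM) were called, with a median absolute change of 2.16, and 37% of the highest part (above 29.29 CPM) were called, with a median absolute change of 0.91. The highest part also held more raised genes (874) than lowered genes (590). That mean includes the chilled libraries, so a rise itself lifts a gene's rank, and the balance is a description only.

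The raised genes made up a larger part of the leaf's messages after chilling. They took 21.9%, 24.4% and 24.6% of counts in the shoot-only chilled libraries, against 11.5%, 10.6% and 11.4% in the control libraries. The lowered genes took 6.68%, 5.83% and 5.67% in the chilled libraries, against 12.3%, 14.0% and 12.6% in the control libraries. These genes were chosen on the same libraries, so the shares are a description of size. A small number of genes carried much of the rise: 10 of the 2408 raised genes gave 27.9% of the summed increase in CPM, and 53 genes gave 50% of it. The fall was spread over more genes, with 120 of the 2250 lowered genes needed for 50% of the summed decrease. Among the raised genes, 376 stood at 100 CPM or more in chilled leaf, against 165 of them in control leaf.

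Some genes had counts in chilled leaf and none in control leaf. Of the raised genes, 64 had no counts in the 3 control libraries, and all were nuclear gene models with a median of 3.23 CPM in chilled leaf. Of these, 12 reached 10 CPM, and the highest was at 97.6 CPM. Other tissues of control plants held some of them. In control root 27 of the 64 averaged at least 1 CPM, in control top crown 13 and in control bottom crown 22. No counts were found in these tissues for 10, 23 and 9 of them. How many of all genes tested in leaf reach 1 CPM there was not counted, so neither an excess nor a lack can be read. In the other direction, 11 lowered genes had no counts in shoot-only chilled leaf, and the highest of them reached 3.85 CPM in control leaf.

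Zm00001d044426 stood at 76.5, 110.6 and 105.7 CPM in shoot-only chilled leaf and had no counts in any control leaf library. Against the floor of 3 counts per control library this was at least 136-fold higher (adjusted p = 2e-11, edgeR), with no overlap between the groups. Under the same treatment it was also higher in the root, which stayed at 26 °C, at 5.29 ± 1.999 CPM in chilled plants and 0.965 ± 0.961 CPM in control plants (SD, n = 3 each; 2.47, SE 0.67, adjusted p = 0.016, edgeR). In bottom crown it was at 4.10 ± 0.185 CPM against 0.361 ± 0.260 CPM (SD, n = 3 each; 3.47, adjusted p = 1.9e-05, edgeR). The direction was the same in leaf, root and bottom crown, and the level was highest in leaf, with the caution that each tissue was scaled on its own.

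Zm00001d041960 was at 45.8, 43.4 and 74.7 CPM in shoot-only chilled leaf and at 0 counts in the 3 control leaf libraries, at least 76.3-fold higher (adjusted p = 2e-07, edgeR). In bottom crown it was at 5.30 ± 0.938 CPM in chilled plants and had no counts in control plants. In top crown it was at 0.952 ± 0.531 CPM in chilled and 0.0533 ± 0.0924 CPM in control plants (SD, n = 3 each). This was 14 counts against 1, and the difference was called (adjusted p = 0.0091, edgeR). In root the groups were at 0.937 ± 0.298 and 0.212 ± 0.233 CPM (SD, n = 3 each), a difference that missed the threshold (adjusted p = 0.15, edgeR).

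Zm00001d043047 was lower, at 11.7, 4.02 and 4.06 CPM in shoot-only chilled leaf against 219.5, 229.4 and 204.4 CPM in control leaf (-5.02, SE 0.64, adjusted p = 0.0002, edgeR). The chilled libraries all lay far below the control libraries. It was lower in the other 3 tissues as well, at 2.12 ± 0.467 CPM against 13.9 ± 6.36 CPM in root, at 24.1 ± 7.24 against 55.9 ± 7.06 CPM in top crown and at 101.8 ± 12.7 against 203.5 ± 9.58 CPM in bottom crown, each as shoot-only chilled against control (SD, n = 3 each; adjusted p of 0.00053, 0.0012 and 0.00015, edgeR). Zm00001d039049 was at 0.426, 0.224 and 0 CPM in shoot-only chilled leaf against 11.7, 10.9 and 9.21 CPM in control leaf (-5.42, SE 0.64, adjusted p = 3.5e-06, edgeR), again with no overlap. Only 3 counts were found for it in chilled leaf, against 136 in control leaf, a ratio of 0.0212 with an exact 95% interval of 0.00432 to 0.0632 for counting error. Both of these genes were low in root-only chilled leaf too, whose shoot was at 26 °C: Zm00001d043047 was there at 1.73, 6.42 and 0.752 CPM, and Zm00001d039049 had no counts.

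**Figure D2:**
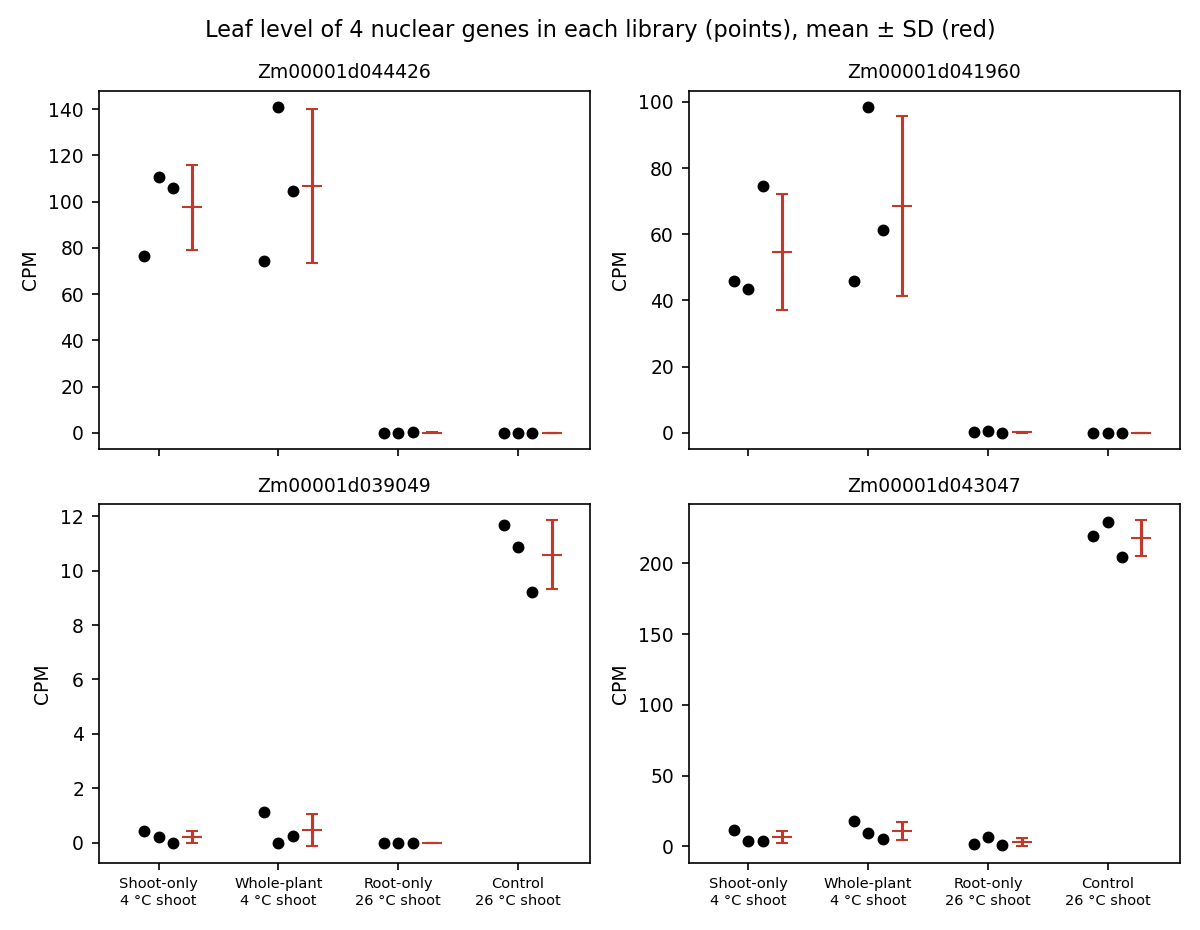
CPM of 4 nuclear genes in each leaf library (points, 3 per condition) with mean ± SD beside them in red; conditions are named with the shoot temperature on the horizontal axis. The upper genes are high where the shoot was at 4 °C, and the lower genes are high in control leaf and low in each of the other 3 conditions.

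The ENSRNA features, which the annotation lists under non-coding RNA identifiers without a name, were mostly higher in chilled leaf. Of 1765 such features, 357 had any count in the 12 leaf libraries and 118 passed the filter on low counts. Of these 118, 84 were higher in shoot-only chilled leaf (71.2%) and 1 was lower (0.847%), where 15.2% and 14.2% of all genes tested were. Their median was 1.80, against -0.02 for nuclear gene models, and 112 of the 118 had a positive change. Called increases were at least 2-fold for 79 features and at least 4-fold for 54, and the largest was 5.73. Summed over the 118, the level was 1792, 1964 and 1898 CPM in shoot-only chilled leaf against 509.2, 637.2 and 562.9 CPM in control leaf, so the groups were far apart. Features nearly absent in control leaf can enter the test through the chilled libraries, and such entries raise the share called higher. The libraries were primed on poly(A) tails, so these values follow the tailed and captured part of each RNA, and a change in tailing was not tested.

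The feature that was lower, ENSRNA049476878, was named after its values were seen. It stood at 0.640, 1.12 and 0.955 CPM in chilled leaf against 2.25, 8.30 and 3.15 CPM in control leaf (-2.26, SE 0.71, adjusted p = 0.023, edgeR). This call was lost without any 1 of the 3 chilled libraries (adjusted p of 0.079, 0.054 and 0.063) or without control replicate 2 (0.13).

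The level of the ENSRNA features was high in both conditions with a cold shoot. The 118 features summed to 2108, 1890 and 2406 CPM in whole-plant chilled leaf and to 317, 301.7 and 330.3 CPM in root-only chilled leaf. Against whole-plant chilled leaf, the median was -0.20 and 0 were called by edgeR, with 0 called by DESeq2 and 1 at an unadjusted p under 0.05. Only 0.0694% of all genes tested were called there by edgeR, so the 0 does not set these features apart. Against root-only chilled leaf, 103 were higher and 0 were lower by edgeR (median 2.90), with 1 lower in DESeq2 and 1 lower at an unadjusted p under 0.05. Of all genes tested, 29.6% were higher and 28.8% lower in that comparison. In the root of the same treatment, 1 of 193 tested was higher and 10 were lower (median -0.35), where 9.63% and 12.6% of all root genes were. The leaf response exceeded the root response for 69 of 142 features and fell short of it for 2, in a test of the difference between the responses in edgeR that called 13.2% and 10.9% of all genes. In top crown 45 of 98 were higher and 4 lower, where 11.4% and 12.5% of all genes were. In bottom crown 41 of 121 were higher and 6 lower, where 14.4% and 11.8% of all genes were.

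**Figure D3:**
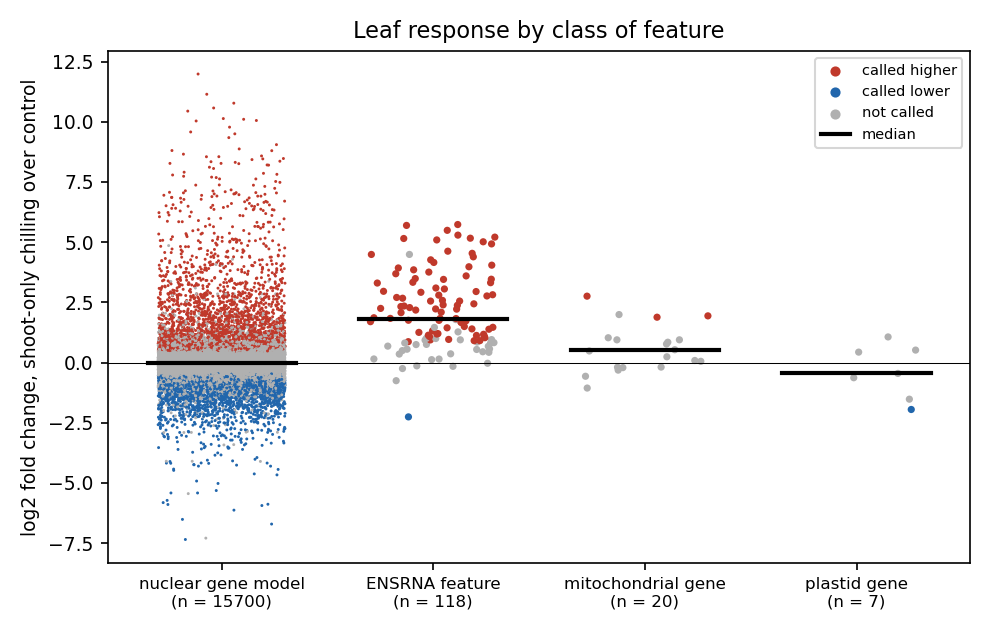
Leaf log2 fold change of shoot-only chilled over control for each feature tested, by class (n below each class), with the class median as a bar; colours give the edgeR call. ENSRNA features lie mostly above 0 with a median of 1.80, while nuclear gene models are spread about a median near 0.

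Among organelle genes, 20 mitochondrial and 7 plastid genes were abundant enough to be tested. Of these 27, 4 passed, a share below the 29.4% of all genes tested. Plant organelle transcripts mostly lack stable poly(A) tails and copies of organelle DNA in the nucleus can share their reads, so these levels are uncertain and describe what was captured. The mitochondrial genes rose in 3 cases and fell in 0, where DESeq2 also gave 0 lower and 0 were lower at an unadjusted p under 0.05. The count of 3 became 1 without control replicate 1 or with only the 6 libraries compared, and 7 higher and 1 lower without the filter on low counts. The 3 of 20 called higher (15%) were close to the 15.2% of all genes tested. The median of the 20 was 0.50, against -0.01 for all genes tested. A positive change was found for 14 of the 20, and for 7787 of all 15845. That median of 0.50 rested on single libraries: it was 0.16 without control replicate 1, 1.03 without control replicate 2, 0.27 without chilled replicate 1, 0.78 without chilled replicate 2 and 0.23 with only the 6 libraries compared.

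The clearest was rrn5 (ZeamMr003), the mitochondrial 5S ribosomal RNA, at 42.8, 29.1 and 55.6 CPM in shoot-only chilled leaf against 6.96, 14.3 and 13.7 CPM in control leaf (1.88, SE 0.30, adjusted p = 0.00012, edgeR). Every chilled library was above every control library. The larger ribosomal RNAs did not pass, with rrn18 at 0.77 (SE 0.44, adjusted p = 0.22, edgeR) and rrn26 at 0.08 (SE 0.41, adjusted p = 0.91). In the root of the same treatment rrn5 was at 57.6 ± 20.7 CPM against 53.9 ± 11.98 CPM in control (SD, n = 3 each; adjusted p = 0.88, edgeR), and the leaf response was the greater by 1.76 (SE 0.44, adjusted p = 0.0086, edgeR).

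The ATP synthase subunit gene atp4 (ZeamMp051) was at 3.84, 0.670 and 2.15 CPM in chilled leaf against 0.205, 0 and 0.674 CPM in control leaf (2.76, SE 0.82, adjusted p = 0.015, edgeR), with the lowest chilled library just under the highest control library. The maturase gene mat-r (ZeamMp095), whose product acts in intron splicing, was at 4.69, 1.79 and 1.67 CPM against 0.410, 0.286 and 1.35 CPM (1.94, SE 0.62, adjusted p = 0.023, edgeR), without overlap. Both rested on few counts, and each call was lost without chilled replicate 1 (adjusted p of 0.11 for atp4 and 0.19 for mat-r), control replicate 1 (0.065 and 0.10) or control replicate 2 (0.058 and 0.083). The change of mat-r was 1.28 without chilled replicate 1. A further gene, cox1 (ZeamMp136), which encodes a subunit of cytochrome c oxidase, stood at 16.4, 3.80 and 11.7 CPM in chilled leaf against 0.205, 5.73 and 2.70 CPM in control leaf, with an adjusted p of 0.07 (1.99, SE 0.75, edgeR). The groups overlapped through chilled replicate 2 and control replicate 2.

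In the plastid set, psaJ (ZemaCp043), which encodes a small subunit of photosystem I, fell to 1.07, 1.56 and 1.91 CPM in chilled leaf against 3.69, 5.44 and 8.54 CPM in control leaf (-1.95, SE 0.41, adjusted p = 0.001, edgeR). Its groups did not overlap. With psaJ, 1 of 7 plastid genes was lower (14.3%), a share close to the 14.2% of all genes tested. The other 6 did not pass, among them matK, the plastid maturase (0.52, SE 0.27, adjusted p = 0.16, edgeR), and the ATP synthase subunit gene atpF (-1.52, SE 0.90, adjusted p = 0.25), which was at 20.7, 20.8 and 30.3 CPM in chilled leaf and at 14.3, 150.1 and 44.3 CPM in control leaf. Summed over all mitochondrial genes, the level was 592.6, 641.6 and 899.1 CPM in chilled leaf and 275.4, 794.7 and 533 CPM in control leaf. Summed over all plastid genes, it was 180.8, 218.3 and 403.8 CPM in chilled leaf and 135.1, 531.5 and 258.5 CPM in control leaf. Control replicate 2 was the highest of its group in both sums, and both sums overlapped between the groups. Without control replicate 2, rrn18 (1.48, adjusted p = 0.0042), cox1 (2.92, adjusted p = 0.031) and rps12, a ribosomal protein gene (1.41, adjusted p = 0.032), were called in edgeR.

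**Figure D4:**
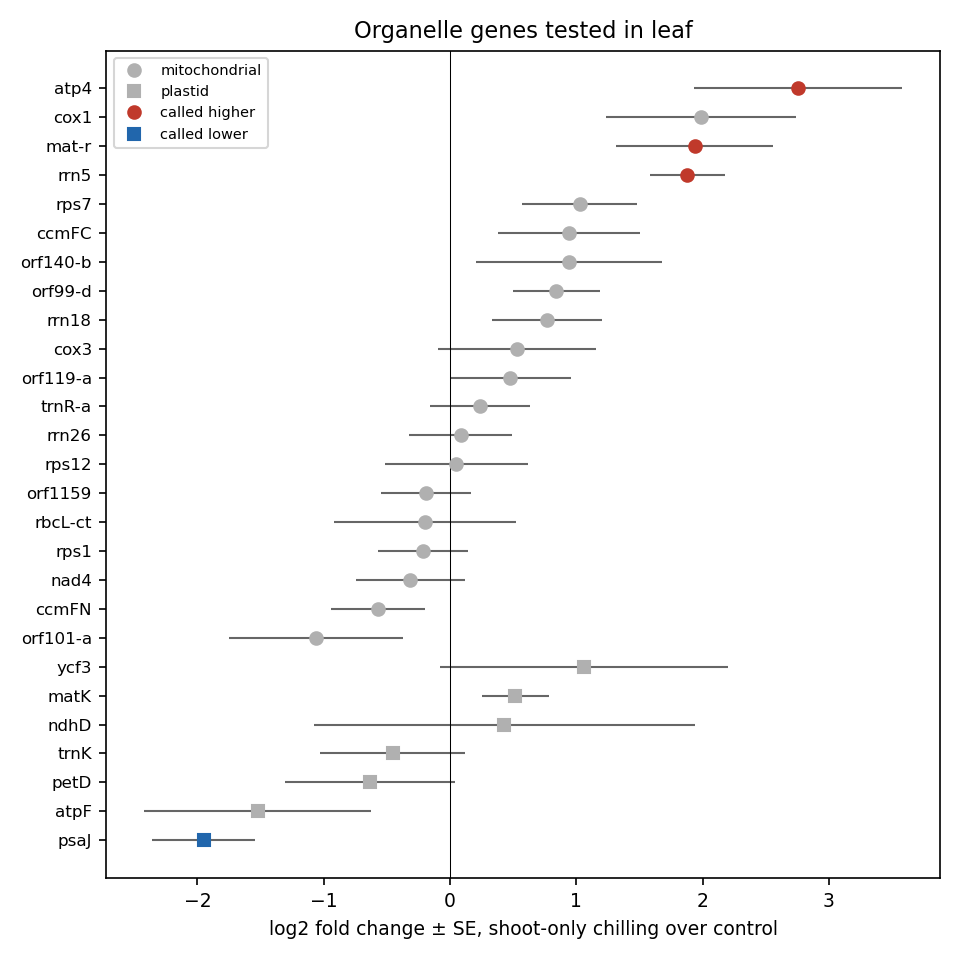
Leaf log2 fold change of shoot-only chilled over control with its SE for the 20 mitochondrial (circles) and 7 plastid (squares) genes tested; colours give the edgeR call. The 3 called mitochondrial genes lie between 1.88 and 2.76, and psaJ lies at -1.95.

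A direct comparison with whole-plant chilling asks whether a cold root changes the leaf when the leaf is equally cold. Almost no gene differed at this precision: 11 of 15845 (0.0694%) were called, 2 higher (0.0126%) and 9 lower (0.0568%) in shoot-only chilled leaf, and 678 had an unadjusted p under 0.05. The 95% interval of the difference lay within 1 log2 unit of 0 for 10309 genes (65.1%), so for the remaining genes the interval reached a 2-fold difference in at least 1 direction. DESeq2 called 21, and leaving out single libraries gave between 1 and 15, the lowest without whole-plant replicate 2, while shoot-only replicates 1, 2 and 3 left out in turn gave 2, 4 and 6. A shoot-only library lay 0.511 to 0.708 from a whole-plant library in root-mean-square log2 CPM, close to the 0.542 to 0.587 among shoot-only libraries.

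Zm00001d020708 was higher, at 76.9, 209.0 and 114.3 CPM in shoot-only chilled leaf against 33.8, 24.3 and 33.5 CPM in whole-plant chilled leaf (2.13, SE 0.29, adjusted p = 0.008, edgeR). It was also above control leaf, at 20.4 ± 3.64 CPM (SD, n = 3; 2.72, adjusted p = 3.6e-06, edgeR). Zm00001d043702, named because only 2 genes were higher, was at 4.48, 7.15 and 7.16 CPM in shoot-only chilled leaf against 1.34, 1.01 and 0.930 CPM in whole-plant chilled leaf (2.48, SE 0.45, adjusted p = 0.045, edgeR).

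Of the 9 lower genes, Zm00001d017545 was at 1.28, 4.92 and 2.63 CPM in shoot-only chilled leaf against 12.3, 22.3 and 20.5 CPM in whole-plant chilled leaf (-2.63, SE 0.41, adjusted p = 0.008, edgeR). Zm00001d028367 was at 1.49, 2.68 and 2.39 CPM against 7.83, 17.2 and 15.8 CPM (-2.63, SE 0.40, adjusted p = 0.008, edgeR). Both are genes of high level in root, where Zm00001d017545 was at 235.1 ± 33.4 CPM and Zm00001d028367 at 87.4 ± 21.2 CPM in control plants (SD, n = 3 each). In all, 5 of the 11 genes were at least 8 times higher in control root than in control leaf, and these 5 were among the 9 that were lower. How many of all genes tested reach this ratio was not counted, so no excess can be read from the 5. Without whole-plant replicate 2, the calls of Zm00001d020708 (adjusted p = 0.073, edgeR), Zm00001d017545 (0.066) and Zm00001d028367 (0.066) were lost, and those of Zm00001d017545 and Zm00001d028367 were also lost without shoot-only replicate 1 (0.078 each), as was that of Zm00001d017545 without shoot-only replicate 3 (0.089). With only the 6 libraries of these conditions in the fit, 0 genes were called by edgeR, with 508 at an unadjusted p under 0.05 and 28 called by DESeq2.

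Against root-only chilled leaf, where the cold organ was the root and the leaf was at 26 °C, the shoot-only chilled leaf differed in more genes than against control. In this comparison 9247 genes were called (58.4%): 4691 were higher (29.6%) and 4556 lower (28.8%) of 15845. The leaf-enriched genes summed to 556300 to 624400 CPM in shoot-only and 229500 to 277100 CPM in root-only chilled leaf, and their part in this count was not tested. Scaling by library size alone gave 2981 higher and 7985 lower.

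Zm00001d037779 was at 639.7, 829.1 and 922.7 CPM in shoot-only chilled leaf against 0.461, 0.252 and 0.301 CPM in root-only chilled leaf (11.08, SE 0.42, adjusted p = 4.8e-13, edgeR), and at 0.689 ± 0.124 CPM in control leaf (SD, n = 3). Zm00001d026436 was at 85.3, 55.9 and 94.8 CPM in shoot-only chilled leaf and had no counts in the 3 root-only libraries (adjusted p = 1.1e-07, edgeR). In control leaf Zm00001d026436 was at 40.95, 16.61 and 22.01 CPM, so it was present without chilling and absent under root-only chilling. On the other side, Zm00001d050577 had no counts in shoot-only chilled leaf, as in control leaf, against 90.4, 109.0 and 129.3 CPM in root-only chilled leaf (adjusted p = 4.2e-11, edgeR). Zm00001d019704 had no counts in shoot-only chilled leaf against 124.7, 229.5 and 236.7 CPM in root-only chilled leaf (adjusted p = 9.8e-10, edgeR). Control leaf held 5 counts of it, a mean of 0.382 CPM.

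Among organelle genes, 5 of 20 mitochondrial genes were higher, a share below the 29.6% of all genes tested, and 0 were lower by edgeR, where 28.8% of all genes were and DESeq2 also gave 0 lower and 0 were lower at an unadjusted p under 0.05. The called genes were atp4 (2.81, SE 0.72, adjusted p = 0.0023), cox1 (2.51, SE 0.72, adjusted p = 0.011), ccmFC (1.38, SE 0.53, adjusted p = 0.031), rps7 (1.13, SE 0.42, adjusted p = 0.026) and rrn5 (1.03, SE 0.27, adjusted p = 0.0037). With library size alone the calls of ccmFC (adjusted p = 0.22), rps7 (0.28) and rrn5 (0.13) were lost. Without shoot-only replicate 1, ccmFC (0.15), rps7 (0.20) and cox1 (0.05) did not pass, and calls of ccmFC and rps7 were also lost without root-only replicates 2 (0.062 and 0.088) and 3 (0.11 and 0.068), and that of ccmFC without shoot-only replicate 3 (0.056). Of the plastid genes, matK was higher (1.40, SE 0.27, adjusted p = 0.00025, edgeR) and psaJ was lower (-2.09, SE 0.39, adjusted p = 0.00012).

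Under this treatment the root stayed at 26 °C, and 4196 of 18831 root genes (22.3%) were called there, 1814 higher (9.63%) and 2382 lower (12.6%) than in control root. Scaled by library size alone, the root split was 1125 higher and 3116 lower. Root counts rested in part on single libraries, with 2633 called without shoot-only replicate 3 and 2466 without control replicate 1. The difference between the leaf and the root response was tested in 1 fit of the 12 libraries: of 18631 genes, 2461 responded more positively in leaf and 2023 more negatively, 4484 in all (24.1%). Genes called in both organs moved the same way in 722 cases and the opposite way in 417, of which 231 were higher in leaf and lower in root. For 415 of these 417 the difference itself was called. They were chosen for opposite calls in the same libraries, which all but fixed this count in advance, so it adds no separate evidence. Leaf and root libraries are separate, and the labels do not tie a leaf library to a root library.

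Zm00001d006464 was at 26.0, 21.2 and 29.6 CPM in shoot-only chilled leaf and had no counts in control leaf. In root it was at 1.04 ± 0.752 CPM in chilled and 2.43 ± 0.608 CPM in control plants (SD, n = 3 each), and the responses differed (adjusted p = 2e-07, edgeR). Zm00001d037779, so high in chilled leaf, was at 1.03 ± 0.301 CPM in chilled and 2.81 ± 1.70 CPM in control root (SD, n = 3 each), and its responses differed by 11.55 (SE 0.60, adjusted p = 5.4e-11, edgeR).

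Zm00001d028968 went the other way, with 0.213, 0 and 0 CPM in shoot-only chilled leaf against 6.14, 4.01 and 6.29 CPM in control leaf, but 54.9 ± 4.21 CPM in chilled root against 13.1 ± 7.90 CPM in control root (SD, n = 3 each; difference -8.04, SE 0.97, adjusted p = 1.4e-05, edgeR). In leaf this was 1 count in the chilled against 72 in the control libraries, a ratio of 0.0133 with an exact 95% interval of 0.000333 to 0.0767 for counting error. Zm00001d033846 had 1.49, 0 and 0 CPM in shoot-only chilled leaf against 3.69, 1.72 and 29.2 CPM in control leaf, and 297.3 ± 92.6 CPM in chilled against 77.9 ± 26.4 CPM in control root (SD, n = 3 each; difference -6.41, SE 1.57, adjusted p = 0.017, edgeR). Its leaf mean in control came mostly from replicate 3, without which the difference was -4.37 (adjusted p = 0.01, edgeR). Without chilled leaf replicate 1, the chilled leaf library that held its counts, the difference was -11.62 (adjusted p = 0.04, edgeR), a value that then depends on the prior count.

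In the crown, shoot-only chilling gave 4235 calls among 17706 genes in top crown (23.9%) and 4912 among 18779 in bottom crown (26.2%). Without top crown shoot-only replicate 3 the first count was 2689, and without bottom crown control replicate 3 the second was 3262. The crown temperature under this treatment is not given in the labels. Of the 2408 genes raised in leaf, 514 of the 2116 tested in top crown were raised there too (24.3%, and 25.4% of the top crown list) and 118 were lowered (5.58%), where 11.4% of all genes tested there were raised and 12.5% lowered. In bottom crown 630 of 2292 were raised (27.5%, and 23.4% of that list) and 136 were lowered (5.93%), where 14.4% of all genes were raised and 11.8% lowered. In root 367 of 2274 were raised (16.1%, and 20.2% of the root list) and 231 were lowered (10.2%), where 9.63% of all genes were raised and 12.6% lowered. Of the 2250 genes lowered in leaf, 507 of 1972 were lowered in top crown (25.7%), 507 of 2085 in bottom crown (24.3%) and 355 of 1969 in root (18%).

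Genes that responded to cold in the root itself were then followed in the chilled leaf. These groups come from root libraries alone and were tested in leaf only where they passed the leaf filter, through chilled libraries in some cases, so their counts are a description. Of 2144 genes raised at least 2-fold in root under whole-plant chilling, with the root at 4 °C, 1669 were tested in leaf, where 939 were higher (56.3%) and 64 lower (3.83%), with a median of 1.12. For this and the groups that follow, the shares of all genes tested in leaf were 15.2% higher and 14.2% lower. Among these 1669 genes 43 had a median of 0 counts in control leaf. Of 1980 genes lowered at least 2-fold in the same roots, 1318 were tested, with 531 lower (40.3%), 57 higher and a median of -0.66. Defined without root whole-plant replicate 1, the groups gave 930 of 1551 higher (60%) and 577 of 1349 lower (42.8%).

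Genes raised at least 2-fold in root under root-only chilling, with the root at 0 °C, numbered 545, and 286 of the 405 tested in leaf were higher (70.6%) and 9 lower, with a median of 2.40. With the 23 of these genes that lacked counts in a group at their bound, the median was 2.27. Of the 658 genes lowered at least 2-fold in those roots, 383 were tested in leaf, where 132 were lower (34.5%) and 71 higher, with a median of -0.31. The groups from the 26 °C root under shoot-only chilling held all genes called there, without a fold cut. Genes raised in that root had a leaf median of 0.12, with 367 of 1519 higher (24.2%) and 186 lower (12.2%). Genes lowered there had a leaf median of -0.11, with 231 of 1765 higher (13.1%) and 355 lower (20.1%). With library size alone the median of the genes raised in the 26 °C root was -0.04. Whether these groups differ from one another was not tested.

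**Figure D5:**
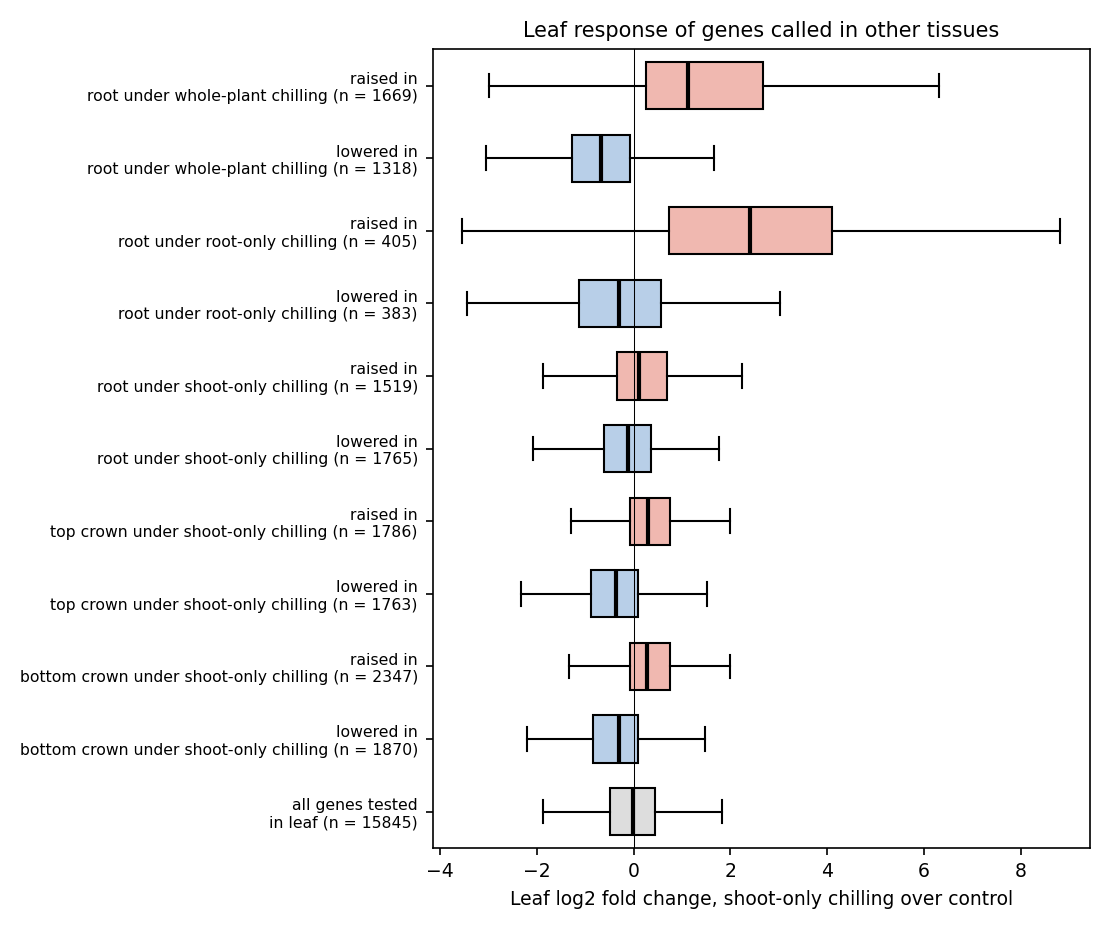
Leaf log2 fold change of shoot-only chilled over control for genes called in other tissues (boxes, quartiles with the median as a bar; whiskers as in a Tukey box plot, points beyond them not drawn; n is the number tested in leaf). Genes raised at least 2-fold in cold roots have leaf medians of 1.12 and 2.40, and genes lowered at least 2-fold there have -0.66 and -0.31. Genes called in the 26 °C root or in the crown were taken without a fold cut. Their medians lie between -0.35 and 0.30, and the unlike cuts limit a comparison with the cold-root groups.

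The organ-enriched genes gave a measure of the leaf's own programme and of other tissue in the sample. Of 699 leaf-enriched genes, 82 were higher and 150 lower in shoot-only chilled leaf (11.7% and 21.5%), where 15.2% and 14.2% of all genes tested were, with a median of -0.04. The higher count was 46 with library size alone, 48 without chilled replicate 3 and 49 without control replicate 2. Their summed level was 572500, 556300 and 624400 CPM in chilled leaf and 539600, 525400 and 562900 CPM in control leaf, so the groups overlapped. Of 358 root-enriched genes 100 were tested, and 45 were higher and 9 lower (45% and 9%, median 0.81). Of these 100, 14, 11 and 20 had no counts in the control libraries, against 2, 1 and 4 in the chilled libraries. Genes nearly absent in control leaf can enter the test through chilled libraries, and such entries raise the share called higher. The sum over the 100 was 1524, 1334 and 1368 CPM in chilled leaf and 1365, 1337 and 2158 CPM in control leaf. The sums overlapped, and their part in the leaf calls was not tested. Of 572 crown-enriched genes 193 were tested, with 28 higher (14.5%), 31 lower (16.1%) and a median of -0.04, shares close to those of all genes tested. In whole organs, fewer cells of a type and less RNA per cell cannot be told apart.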

How the data were processed

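RNA was taken up in Trizol, per the labels' protocols, and a QuantSeq 3′ kit in its forward version made libraries from the ends of polyadenylated transcripts, read on a NextSeq. The submitters' processing notes list the aligner STAR as well as edgeR, with versions not given. No genome build, counting rule or strand setting, nor a statement on molecular identifiers, is given in the sources used here, so overlapping, antisense and near-identical genes may share reads. The authors deposited whole-number read counts for 46430 identifiers in every library, and these counts were the input of all tests. Their deposited CPM tables were not used.

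All 12 leaf libraries were fitted together in edgeR 4.0.16 (R 4.3.3) with filterByExpr, TMM factors and robust quasi-likelihood fits of 4 condition means. P-values were adjusted by Benjamini-Hochberg over all genes tested, with a threshold of 0.05, and each SE is the one implied by the F value. CPM were computed here on TMM-scaled sizes. Root and crown were fitted on their own 12 libraries, and the leaf and root responses to shoot-only chilling were compared in 1 fit of 12 libraries. Alternatives were DESeq2 1.42.0, library-size scaling, no filter, only the libraries compared, a replicate block and leaving out each library. Replicates differed by more than counting noise in each pair (chi-square of 5.81 or more per degree of freedom).

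The text names genes that were called, did not overlap between the libraries, reached 10 CPM in one of the groups and had the largest changes, with at most 2 risen and 2 fallen identifiers per comparison where no symbol exists. All tested organelle genes were taken. The name table, of the RefSeq assembly Zm-B73-REFERENCE-NAM-5.0, gave a symbol to 0 nuclear and 0 ENSRNA identifiers, 153 of 154 microRNA loci and every organelle gene, so the planned lists of pathway genes and cell type markers stayed empty. Members, groups and lists were chosen with earlier results of these data known. Promoter and protein sequences were not used here. A group without counts was set to a floor of 3 counts per library, which covers counting error only.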

Additional observations from a re-analysis of the deposited data

Results flagged for a closer look

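The response to shoot-only chilling differed between leaf and root for 4484 of 18631 genes in edgeR's test of the difference between the 2 responses. Among the genes named by rule, the leaf response exceeded the root response for Zm00001d006464 (11.96 on the log2 scale), Zm00001d037779 (11.55) and rrn5 (1.76). The value of Zm00001d006464 depends on the prior count, since control leaf had no counts, and its leaf level was at least 35.8-fold higher in shoot-only chilled than in control leaf. The leaf response was below the root response for Zm00001d028968 (-8.04) and Zm00001d033846 (-6.41). The value of Zm00001d033846 ran from -11.62 to -4.37 when single libraries were left out, with adjusted p of up to 0.048 in edgeR.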

How the results depend on the processing

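The count of genes called between shoot-only chilled and control leaf ran from 3728 to 4368 over the fits that left out 1 library and from 4513 to 5108 over the other alternatives. Against root-only chilled leaf, leaving out 1 library gave 8404 to 8855, and for leaf against root 3710 to 4486. Against whole-plant chilled leaf the 11 calls became 21 in DESeq2, 96 when genes of low counts were kept, 0 in a fit of those 6 libraries alone and 1 to 15 without single libraries. The 3 named genes of that comparison with an adjusted p of 0.008 had 0.053 to 0.076 in that smaller fit. The counts called without single libraries were 2466 to 3825 in root, 2689 to 3618 in top crown and 3262 to 4841 in bottom crown. Scaled by library size alone, the higher and lower calls were 1400 and 2865 in top crown and 1611 and 3008 in bottom crown. The cause of these shifts was not tested.

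Under library size alone 3 values changed sign: the leaf median of genes raised in root under shoot-only chilling (-0.041), rps12 (-0.13) and rrn26 (-0.089). Leaving out single libraries changed the sign of organelle genes that had not passed, with ranges of -0.69 to 0.36 for nad4, -2.50 to 2.97 for ndhD, -1.65 to 0.043 for orf101-a, -0.48 to 0.14 for orf1159, -0.97 to 0.022 for petD, -0.64 to 0.69 for rbcL-ct, -0.50 to 0.24 for rps1, -0.47 to 1.41 for rps12, -0.31 to 0.63 for rrn26, -0.89 to 0.18 for trnK and -0.039 to 0.51 for trnR-a.

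Same-numbered chilled and control libraries had deviations correlated at 0.07, 0.06 and 0.00 (n = 3 pairs), so the numbers are not taken to pair the samples, although each chilled library correlated best with its own number. With the replicate number as a block, 4893 genes were called against control, 15 against whole-plant chilled leaf, 9384 against root-only chilled leaf, 4912 between leaf and root, 5214 in root, 4207 in top crown and 4970 in bottom crown. In all libraries, depth limits what can be said of genes near the floor of 3 counts.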

Other observations

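The 154 microRNA loci of the annotation had 0 counts in each of the 12 leaf libraries, so no leaf value can be given for them. Each locus may hold up to 3 counts per library by the floor used here. The parts of depth, poly(A) priming and the counting rule in these zeros were not tested. Of the 208 mitochondrial and 157 plastid identifiers, 20 and 7 were tested in leaf. In the crown, which the treatment held at a temperature the labels do not give, the mitochondrial genes had a median of -0.67 in top crown and -0.84 in bottom crown under shoot-only chilling, with 4 of 20 lower in top crown, where 12.5% of all genes were, and 7 of 19 lower in bottom crown, where 11.8% of all genes were (edgeR). The median of the mitochondrial genes tested in leaf was 0.50 and ran from 0.16 to 1.03 when single libraries were left out.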
